A study of Mus musculus with 15 samples.

Results

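The comparison described here is between Western diet (WD) and chow control diet (CD) in CD11b+CD45hi cells sorted from mouse brain. All 7 CD45hi libraries of the series entered it, 4 from CD-fed and 3 from WD-fed mice, out of 15 libraries in all; the other 8 hold CD11b+CD45lo cells of the same diets, 4 libraries each, and helped to estimate the spread. Every mouse was a wild type C57BL/6J male of 12 months with no genetic change or other treatment. CD mice stayed on standard chow from weaning, and WD mice were moved in young adulthood to a feed with more milk fat and protein, less fibre and added fructose syrup. Poly(A) RNA was sequenced and a level is given as read counts relative to library size (cpm), adjusted between libraries by the trimmed mean of M values (TMM). The deposited names carry an animal number, a separate one for each of the 7 CD45hi libraries, and each of these 7 also gave a CD45lo library. The sources do not say which library ran on which instrument, so part of the spread between libraries may be technical.

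CD11b is an integrin chain found on microglia, monocytes, macrophages and granulocytes, and a high level of the leukocyte antigen CD45 separates blood-derived and border-associated cells from most resident microglia. The CD45hi gate is therefore a mixture. Neutrophils are short-lived granulocytes that carry the calcium-binding proteins S100A8 and S100A9 and the chemokine receptor CXCR2. Classical monocytes use the receptor CCR2 to leave the marrow and to enter tissue, whereas patrolling (nonclassical) monocytes crawl along the vessel wall and depend on the nuclear receptor NR4A1. Border-associated macrophages live in the meninges and around vessels and carry the mannose receptor MRC1. A diet effect on RNA from such a gate can come from the mix of cells or from the cells themselves, and in bulk samples fewer cells of a type and less RNA per cell cannot be told apart.

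The 7 CD45hi libraries held 11951412 to 17752587 expected counts and detected 14072 to 15477 genes with at least 1 count. Spread between replicates was large. The common biological coefficient of variation was 1 in CD45hi cells against 0.432 in CD45lo cells. Single genes often dropped out of 1 library, with 45 to 223 genes per CD45hi library under 10% of the median of the other CD45hi libraries (where that median was at least 10 cpm), against 1 to 5 genes per CD45lo library. WD library 1 and CD library 4 had the most such drops, 223 and 190 genes, and they stood apart on the first and second principal components. The gate itself was examined through its own genes: Ptprc, which encodes CD45, was at 778, 947, 805 and 1170 cpm in CD and at 1290, 1150 and 1290 cpm in WD (edgeR, log2 fold change 0.43, FDR = 0.162), and the ranges overlapped. Itgam, which encodes CD11b, lay between 1590 and 1940 cpm in CD and between 1510 and 2100 cpm in WD. Microglial genes were present at about equal summed levels on both diets (9303 to 11500 cpm in CD, 10210 to 10820 cpm in WD), which is below the 19360 to 24410 cpm of the CD45lo libraries.

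In the mix of transcripts, neutrophil genes were lower in WD. The 18 genes of a mature neutrophil list summed to 3871, 3348, 2084 and 4400 cpm in the 4 CD libraries and to 1865, 1624 and 2093 cpm in the 3 WD libraries, or 3426 ± 992 (SD, n = 4) against 1861 ± 235 (SD, n = 3). WD libraries 1 and 2 lay below every CD library, and WD library 3 exceeded CD library 3, the lowest of its group, by a small margin. By TPM, which is per transcript length, the overlap was wider. The sums were then 8833, 9051, 3644 and 9200 in CD and 3042, 2559 and 4696 in WD. All 18 genes had a log2 fold change below 0, with a median of −1.23, while 50.9% of all 14967 tested genes were below 0 and their median was −0.02. By edgeR's quasi-likelihood test with Benjamini-Hochberg adjustment (FDR) none of the 18 was called at 0.05, and 7 had an unadjusted p under 0.05, all lower in WD, where 9.39% of all tested genes were lower at that p.

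**Figure D1:**
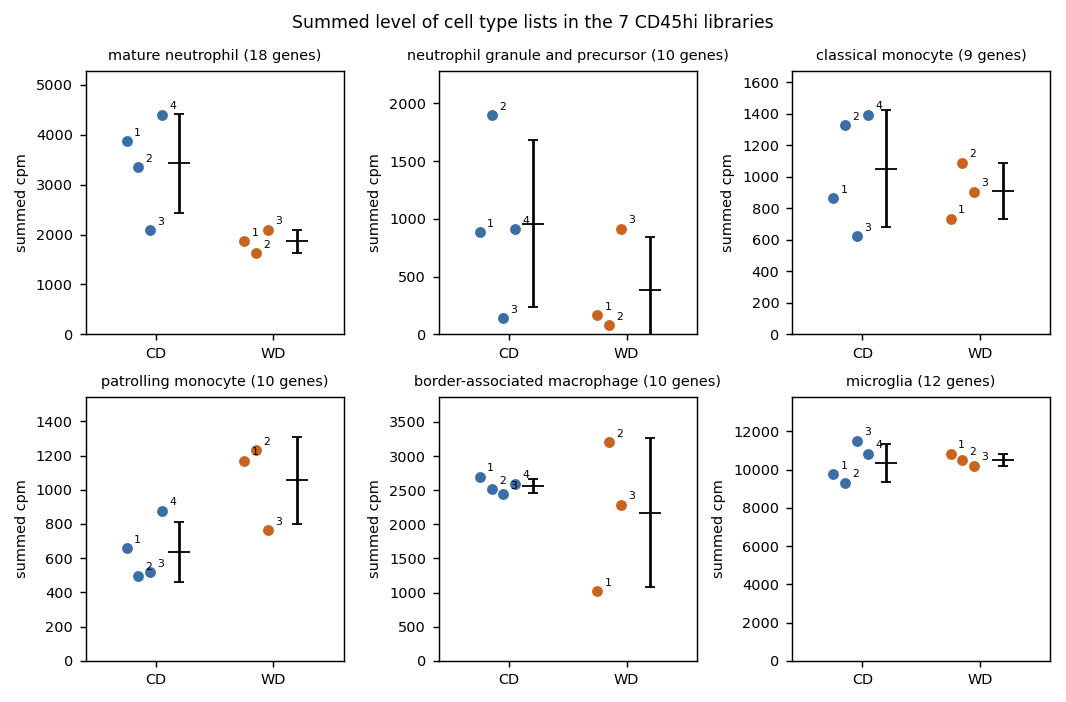
Summed level, in cpm on linear axes, of 6 cell type lists in each CD45hi library; points are single libraries with their numbers, and the bar beside them gives the mean and SD of each diet (cut off at 0 for the granule list). Neutrophil sums reach 2084 to 4400 cpm in CD and 1624 to 2093 cpm in WD, and the patrolling monocyte sums of WD (763.7 to 1230 cpm) lie mostly above those of CD (497.8 to 876.3 cpm).

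S100a9 was at 968, 1110, 420 and 1290 cpm in CD and at 351, 252 and 596 cpm in WD. Its partner S100a8 was at 383, 343, 125 and 355 cpm in CD and at 101, 73.3 and 156 cpm in WD. For both genes CD library 3 was far below the rest of its group and overlapped WD library 3. The log2 fold changes were −1.24 (SE 0.526, edgeR FDR = 0.233) for S100a9 and −1.45 (SE 0.58, edgeR FDR = 0.212) for S100a8. Trem1, an activating receptor of neutrophils and monocytes that amplifies inflammatory signals, had no overlap between diets, at 97.3, 108, 72.0 and 144 cpm in CD and at 30.6, 34.7 and 26.5 cpm in WD. It was 3.44-fold lower in WD (log2 fold change −1.78, SE 0.465) with an edgeR FDR of 0.0897, short of the threshold. Cxcr2, the receptor that draws neutrophils out of the marrow, was at 530, 385, 320 and 515 cpm in CD and at 333, 221 and 232 cpm in WD (log2 fold change −0.74, edgeR FDR = 0.124), with WD library 1 inside the CD range. Csf3r, the receptor for granulocyte colony-stimulating factor, differed least, at 609 to 885 cpm in CD and 593 to 711 cpm in WD.

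Genes of the list with less RNA, chosen here after their values were seen, included 2 of neutrophil function. Mmp8, the neutrophil collagenase, was at 200, 226, 136 and 299 cpm in CD and at 42.8, 66.8 and 117 cpm in WD, and Hdc, which makes histamine, was at 202, 124, 164 and 338 cpm in CD and at 97.6, 86.3 and 59.4 cpm in WD. Neither gene overlapped between diets, and neither passed the test (edgeR FDR = 0.18 and 0.199). In all, 6 of the 18 genes had every WD library below every CD library, against 3.19% of all tested genes. Much of the summed level is S100a9: without it the neutrophil sums were 1664 to 3110 cpm in CD and 1372 to 1514 cpm in WD and no longer overlapped.

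Granule genes made earlier in neutrophil development varied more between libraries than between diets. Ngp was at 483, 1110, 55.2 and 446 cpm in CD and at 122, 43.1 and 634 cpm in WD. Lcn2, the iron-siderophore binder lipocalin 2, was at 275, 360, 62.9 and 257 cpm in CD and at 20.9, 16.1 and 130 cpm in WD (log2 fold change −2.10, edgeR FDR = 0.193). Both genes were low in CD library 3 and high in WD library 3, the reverse of their groups. Among the precursor genes, Mpo, the myeloperoxidase of azurophilic granules, reached 75.4 cpm in CD library 2 and 43.5 cpm in WD library 3 and was at most 0.193 cpm in the other 5. The 10 tested genes of this list were all below 0, with a median log2 fold change of −3.55. Of these, 4 had an unadjusted p under 0.05, where 9.39% of all tested genes were lower at that p. The value rests on CD library 2: without it the median was −0.06, with 4 genes below 0 and 2 above. Without WD library 3 it was −6.81, and with CD45hi libraries alone −0.98 over the 5 genes tested.

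Monocyte genes differed by kind. All 10 patrolling monocyte genes had a log2 fold change above 0, with a median of 0.99, against 48.5% of all tested genes. None was called, 2 had an unadjusted p under 0.05 (8.16% of all tested genes were higher at that p), and 3 had every WD library above every CD library (2.58% of all tested genes). The sums were 657.9, 497.8, 517.4 and 876.3 cpm in CD and 1169, 1230 and 763.7 cpm in WD, with WD library 3 below CD library 4. By TPM they were 351.2 to 499.8 in CD and 503.3 to 834.3 in WD and did not overlap.

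Within this list Itgal, the αL chain of the adhesion receptor LFA-1, was at 191, 144, 156 and 205 cpm in CD and at 314, 279 and 198 cpm in WD (log2 fold change 0.60, SE 0.492, edgeR FDR = 0.562). WD library 3 was within the CD range. Nr4a1 was at 140, 140, 123 and 302 cpm in CD and at 177, 227 and 174 cpm in WD, where CD library 4 alone exceeded all WD libraries. The 2 members with p under 0.05 were named after their values were seen. Treml4, a receptor of nonclassical monocytes and some dendritic cells, was at 24.4, 15.6, 23.7 and 19.1 cpm in CD and at 55.8, 63.9 and 65.2 cpm in WD (log2 fold change 1.57, SE 0.674, edgeR FDR = 0.239). Eno3, an enolase, was at 12.7, 11.6, 19.7 and 6.76 cpm in CD and at 65.9, 25.7 and 27.1 cpm in WD (log2 fold change 1.64, SE 0.448, edgeR FDR = 0.104). For both genes all WD libraries were above all CD libraries. Emr4, an adhesion receptor with EGF-like repeats also known as Adgre4, showed the same order at lower contrast, at 37.5 to 129 cpm in CD and 134 to 158 cpm in WD.

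Classical monocyte genes showed no common direction. Of 9 tested, 4 were above 0 and 5 below, with a median log2 fold change of −0.14, and none had an unadjusted p under 0.05. Ccr2 was at 252, 356, 273 and 611 cpm in CD and at 244, 323 and 244 cpm in WD. F13a1, the A chain of coagulation factor XIII, was at 239, 316, 218 and 255 cpm in CD and at 149, 377 and 273 cpm in WD. Only CD library 4 stood out for Ccr2, and the WD values of F13a1 enclosed those of CD.

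Dividing 1 list by another within each library removes the scaling between libraries. The neutrophil sum was 5.88, 6.73, 4.03 and 5.02 times the patrolling monocyte sum in CD and 1.60, 1.32 and 2.74 times in WD (5.42 ± 1.16, SD, n = 4, against 1.89 ± 0.753, SD, n = 3). The patrolling sum was 0.762, 0.375, 0.831 and 0.628 times the classical monocyte sum in CD and 1.59, 1.13 and 0.843 times in WD. Neither ratio overlapped between diets, although for the second the gap between CD library 3 and WD library 3 was small. Both ratios use the patrolling list, already seen higher in WD, and the first also uses a list already seen lower. Neither separation therefore adds further evidence. The neutrophil sum over the classical sum did overlap, at 2.53 to 4.48 in CD and 1.49 to 2.54 in WD. Ratios to the microglial sum overlapped too. For neutrophils they were 0.181 to 0.407 in CD and 0.155 to 0.205 in WD. For patrolling monocytes they were 0.045 to 0.081 in CD and 0.0748 to 0.117 in WD. Over the border-associated macrophage sum the neutrophil sum was 0.853 to 1.7 in CD and 0.506 to 1.83 in WD. These are ratios of cpm sums, neither per transcript length nor cell counts, so only their change between diets is read.

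**Figure D2:**
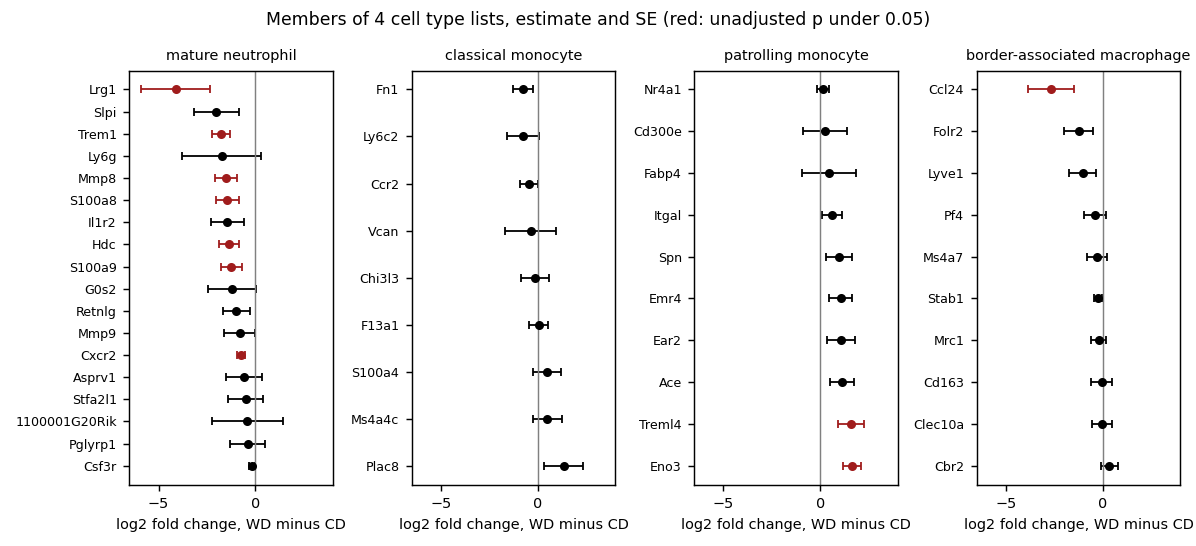
Log2 fold change (WD minus CD, horizontal axis) with its SE for each tested gene of 4 cell type lists, from the edgeR fit; red marks an unadjusted p under 0.05. All 18 neutrophil genes lie below 0 and all 10 patrolling monocyte genes above 0, while the classical monocyte genes fall on both sides.

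Macrophage genes followed 1 library more than the diet. Mrc1 was at 1390, 1250, 1320 and 1430 cpm in CD and at 456, 1910 and 1140 cpm in WD, and Cd163, the haemoglobin scavenger receptor, was at 135, 149, 152 and 184 cpm in CD and at 16.5, 169 and 259 cpm in WD. CD libraries were close to each other while WD library 1 was lowest and WD library 2 or 3 highest of all 7. The border-associated macrophage sum was 2562 ± 109 (SD, n = 4) in CD and 2172 ± 1098 (SD, n = 3) in WD. Of its 10 genes 9 were below 0 with a median log2 fold change of −0.26, and without WD library 1, 5 were below 0 and 5 above. The log2 fold changes of Mrc1 (−0.21) and Cd163 (−0.07) became 0.17 and 0.46 without WD library 1. The microglial list had a median of −0.09, with Cx3cr1, the fractalkine receptor, at −0.15 and P2ry12, the purine receptor of resting microglia, at −0.24.

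Transcripts of lymphoid cells and of brain cells other than microglia were few. T and B lymphocyte genes summed to 286.6 to 497.4 cpm in CD and 326.1 to 436.9 cpm in WD, and natural killer and cytotoxic genes to 33.29 to 136.2 cpm and 63.02 to 216.2 cpm. The lymphocyte sum was mostly Ighm, the constant region of IgM, and without it was 15.33 to 40.08 cpm in CD and 25.02, 132.6 and 60.96 cpm in WD. Astrocyte genes summed to 50.23 to 108 cpm in CD and to 70.26, 253.8 and 175 cpm in WD. By TPM the astrocyte sums did not overlap, at 13.08 to 33.2 in CD and 110.5, 80.09 and 62.44 in WD. At an unadjusted p under 0.05, 3 of its 5 genes were higher in WD, against 8.16% of all tested genes. Oligodendrocyte genes summed to 96.24 to 149.9 cpm in CD and to 182.8, 117.3 and 229.7 cpm in WD, with 2 of 5 higher at that p. No gene of these lists was called. The part of such RNA in the results that follow was not tested.

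Over all genes, 38 of 14967 were called at an FDR of 0.05 (0.254%), of which 9 rose in WD (0.0601%) and 29 fell (0.194%). The balance of directions depends on the method: limma-voom called 17 higher and 10 lower in WD, the newer form of edgeR 161 and 91, and DESeq2 423 and 607. The 2 diets did not overlap in 37 of the 38, against 5.77% of all tested genes. Since the 38 were chosen for their diet difference in these libraries, that count is a description. None of the 38 belonged to a cell type list and 7 to any list. The number of calls depends on the spread shared with the tighter CD45lo libraries. When the 7 CD45hi libraries were fitted alone, edgeR called 0 of 13451 genes (lowest FDR 0.785) and 843 (6.27%) had an unadjusted p under 0.05, and limma-voom with a weight for each cell type also called 0 (lowest FDR 0.949, 784 genes or 5.24% with an unadjusted p under 0.05). All 38 kept their sign and an unadjusted p under 0.05 in the fit of CD45hi libraries alone. That fit uses the same CD45hi libraries from which the 38 were chosen, so it is no separate evidence. Called genes were of moderate level, with a median of 13.5 cpm over the 7 libraries against 13.7 cpm for all tested genes.

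Among genes that rose, 2 encode parts of well-known complexes. Psmb9, which encodes the interferon-inducible β1i subunit of the immunoproteasome, was at 101, 68.1, 54.0 and 89.6 cpm in CD and at 203, 165 and 184 cpm in WD (log2 fold change 1.23, SE 0.221, edgeR FDR = 0.0321). It lies at chr17:34181987-34187764 (mm10), where Tap1 overlaps it on the opposite strand, and Tap1 was at 32.5 to 69.1 cpm in CD and at 52.1 to 66.0 cpm in WD. Sdhd, a membrane anchor of succinate dehydrogenase (chr9:50596357-50603812), was at 42.7, 30.3, 50.1 and 34.8 cpm in CD and at 93.7, 190 and 111 cpm in WD (log2 fold change 1.74, SE 0.289, edgeR FDR = 0.0241). Every WD library exceeded every CD library for both genes.

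Mfsd1, a lysosomal transporter, was the called gene with the steadiest values, at 96.9, 131, 123 and 115 cpm in CD and at 238, 222 and 201 cpm in WD (log2 fold change 0.92, SE 0.151, edgeR FDR = 0.0241). Dnajc1, a DnaJ protein of the endoplasmic reticulum, was at 75, 36.8, 70.1 and 37.2 cpm in CD and at 153, 157 and 135 cpm in WD (log2 fold change 1.44, SE 0.258, edgeR FDR = 0.0321). It lies at chr2:18195654-18392830, overlaps Mllt10 on the other strand and had fractional counts in all 7 libraries, as RSEM gives where it divides reads between genes. Smim13, a small membrane protein gene, was at 8.72, 12.3, 3.78 and 16.0 cpm in CD and at 179, 46.2 and 96.3 cpm in WD (log2 fold change 3.39, edgeR FDR = 0.0241). Ctdspl, a small phosphatase gene, was at 0.528 to 2.82 cpm in CD and at 25.7, 34.1 and 20.3 cpm in WD (log2 fold change 4.24, edgeR FDR = 0.0241). These 4 genes were separated completely by diet. Gm3252 and the processed pseudogene Gm13477 also rose (log2 fold change 2.74 and 2.68), and both carried fractional counts, so that reads of near-identical copies may have been divided between loci.

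Sowahc was the only called gene with overlapping diets, and it is called under 1 of 2 identifiers that share the symbol. The called identifier, ENSMUSG00000071286, was at 0, 0.0828, 0 and 0 cpm in CD and at 156, 17.8 and 0 cpm in WD (edgeR FDR = 0.0370). The second, ENSMUSG00000098188, which was looked at after the call, was at 156, 183, 209 and 206 cpm in CD and at 0.282, 198 and 128 cpm in WD. WD library 1 held nearly all of its reads at the first identifier and the CD libraries at the second. Summed over both, the gene was at 156.1, 183.2, 208.7 and 205.9 cpm in CD and at 156, 215.3 and 128.2 cpm in WD, with a log2 fold change of −0.18 (SE 0.184, edgeR FDR = 0.659), and was not called.

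**Figure D3:**
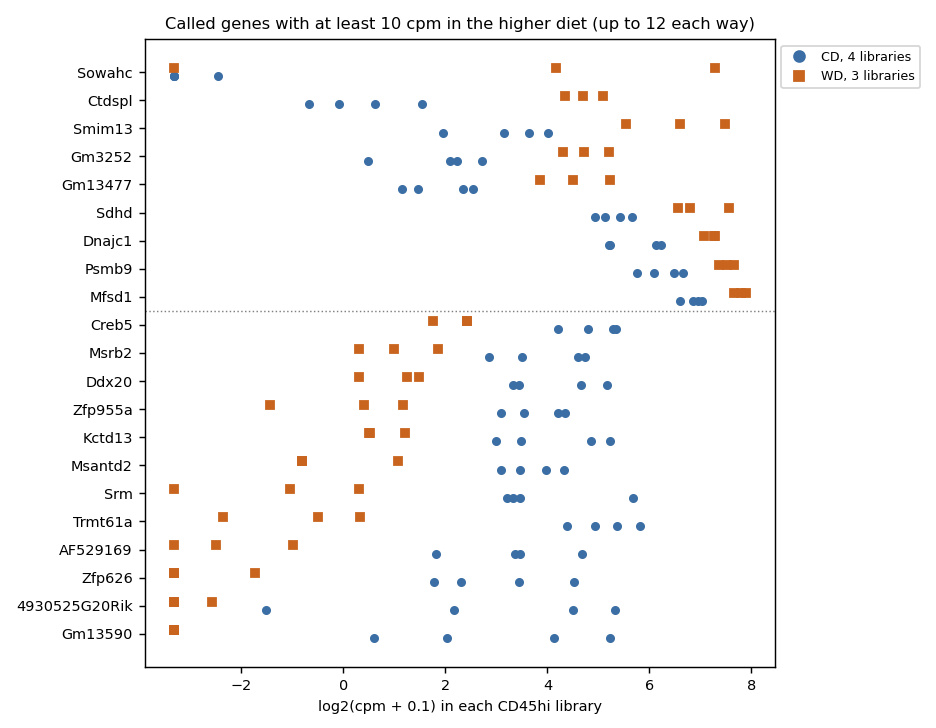
Level of each called gene with at least 10 cpm in the higher diet, up to 12 in each direction, as log2(cpm + 0.1) in each CD45hi library (circles CD, squares WD); genes above the dotted line rose in WD and those below it fell. Diets are separated for every gene shown except Sowahc, for which 1 WD library lies with the CD libraries.

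Among genes that fell, Trmt61a had the lowest FDR. It encodes the catalytic subunit of the enzyme that methylates adenosine 58 of tRNA, lies at chr12:111678105-111683902, and was at 56.4, 30.6, 41.3 and 20.7 cpm in CD and at 0.0941, 0.604 and 1.15 cpm in WD (log2 fold change −5.87, SE 0.673, edgeR FDR = 0.00171). Even the lowest CD library held many times the RNA of the highest WD library. Trmt6, which encodes the other subunit of that enzyme, was at 11.4, 42.8, 20.6 and 10.8 cpm in CD and at 10.2, 35.8 and 19.6 cpm in WD, and its ranges overlapped almost entirely. In CD45lo cells Trmt61a averaged 27.5 cpm in CD and 27.7 cpm in WD, and it was the only gene to pass the edgeR test of the diet difference between cell types (interaction, log2 difference −5.88, FDR = 0.0128, 1 of 14967 genes or 0.00668%). With the animal as a block, which pairs the CD45hi and CD45lo libraries of each mouse, the log2 difference was −6.18 and the edgeR FDR was 0.314, so that the call was lost. It was also lost with limma-voom (FDR = 0.151) and the newer form of edgeR (FDR = 0.0638).

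The other falls in genes of at least 10 cpm in CD concerned varied functions. Srm, spermidine synthase, was at 9.11, 9.94, 11 and 51.2 cpm in CD and at 0, 1.14 and 0.383 cpm in WD (log2 fold change −5.26, edgeR FDR = 0.0370). Ddx20, a helicase of the complex that assembles small nuclear ribonucleoproteins, was at 25.2, 9.94, 36.1 and 10.8 cpm in CD and at 2.26, 1.14 and 2.68 cpm in WD (log2 fold change −3.34, edgeR FDR = 0.0241). Creb5, a bZIP transcription factor, was at 38.9, 18.4, 40.5 and 27.6 cpm in CD and at 5.27, 3.29 and 5.29 cpm in WD (log2 fold change −2.76, edgeR FDR = 0.0467). For Srm 1 CD library carried most of the CD mean, whereas Ddx20 and Creb5 were several-fold higher in each CD library than in any WD library. Kctd13, an adaptor of a cullin ubiquitin ligase, Msrb2, a mitochondrial methionine sulfoxide reductase, Msantd2 and the zinc finger gene Zfp955a fell by 3.70, 2.98, 3.79 and 3.60 on the log2 scale.

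For 8 of the 29, every WD library held 3 counts or fewer, the floor used for a value near 0, so that only a lower bound of the fall can be given. Zfp626 was at 3.34, 10.8, 4.84 and 23 cpm in CD and at 0, 0.201 and 0 cpm in WD, at least 37.2-fold lower against the highest floor of a WD library (0.282 cpm). By the same measure the antisense transcript 4930525G20Rik, which overlaps Zfp273, was at least 59.6-fold lower, and the pseudogene Gm13590, which overlaps Gca, at least 53.6-fold lower. AF529169 had 1 WD library above the floor, at 0, 0.403 and 0.0767 cpm in WD against 3.41 to 25.6 cpm in CD. Within CD these genes varied widely, 4930525G20Rik from 0.248 to 39.9 cpm. Its lowest CD value equals the floor of 3 counts in CD library 2 (0.248 cpm), so that this library was itself near 0. The bounds set the CD mean over the WD floor and do not hold for every CD library. In 16 of the 29, no WD library was at the floor, and their log2 fold changes ran from −3.79 to −1.26. They include Cnot8 (a deadenylase subunit), Pmpca (mitochondrial presequence processing) and Mapre2 (microtubule ends), as well as, among the genes below the 12 largest, Glyr1, Tdrd7, Col15a1, Rcan3, Nom1 and Zfp866. A further 7 falls had under 10 cpm in CD: Als2cl, Nup35, Ddx59, Zbtb22, Gpatch4, Htr2b and Aamdc.

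How the calls relate to the mix of cells was examined by adding the summed log2 level of 1 cell type list to the fit as a covariate. The neutrophil covariate itself went with diet, at a mean of 11.69 ± 0.47 (SD) in CD and 10.85 ± 0.18 (SD) in WD. So did the patrolling one, at 9.28 ± 0.38 (SD) in CD and 10.01 ± 0.38 (SD) in WD. With 7 libraries such fits cannot separate the diet from the mix of cells. The mature neutrophil sum left 13 of the 38 called, 37 with an unadjusted p under 0.05 and all 38 with the same sign. With the patrolling monocyte sum 25 remained called, with the classical monocyte sum 34, with the microglial sum 37 and with the border-associated macrophage sum 38. The median size of the 38 log2 fold changes, relative to the fit without a covariate, was 1.0, 1.03, 1.0, 1.0 and 1.01 in the same order. Trmt61a had a log2 fold change between −5.94 and −5.04 and an FDR between 0.00284 and 0.0126 across the 5 covariates. The number of all genes called rose with each, to 79, 466, 60, 244 and 272, for a reason that was not tested. With the microglial sum, 156 of the calls were higher in WD and 88 lower.

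For the lists themselves, the patrolling monocyte median was 1.02 with the neutrophil sum in the fit, against 0.99 without. The neutrophil median became 0.03 with its own sum as covariate, as it must by construction. The granule gene median became 0.98 with the patrolling monocyte sum, with 8 of 10 genes above 0, and 0.05 with the neutrophil sum. It was −1.31 with the classical monocyte sum, −1.38 with the microglial sum and −3.3 with the border-associated macrophage sum. Without WD library 1 and CD library 4, which stood apart, 17 of 18 neutrophil genes were below 0 with a median of −1.0. With each CD45hi library left out in turn, 16 to 18 of the neutrophil genes were below 0 (median −1.58 to −1.02) and 8 to 10 of the patrolling genes above 0 (median 0.73 to 1.17).

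Other genes that the study names, for this contrast or in its title, missed the threshold. Ube2w, a ubiquitin-conjugating enzyme of protein N termini, was at 24.8, 26.6, 23.3 and 25.5 cpm in CD and at 8.84, 3.89 and 5.52 cpm in WD (log2 fold change −2.04, edgeR FDR = 0.0543). Sugt1, a cochaperone of HSP90, was at 20.9, 15.2, 38.2 and 44.9 cpm in CD and at 6.21, 9.79 and 9.28 cpm in WD (log2 fold change −1.82, edgeR FDR = 0.0623), and Usp10, a deubiquitinase, was at 22.3, 20, 13.1 and 6.63 cpm in CD and at 43.2, 25.2 and 102 cpm in WD (log2 fold change 1.88, edgeR FDR = 0.0732). None of the 3 overlapped between diets, and none passed the threshold. Spp1, which encodes the secreted phosphoprotein osteopontin, was at 57.0, 44.2, 35.0 and 187 cpm in CD and at 142, 155 and 246 cpm in WD (log2 fold change 1.16, SE 0.647, edgeR FDR = 0.366). CD library 4 was above 2 of the 3 WD libraries, while the other CD libraries were below all of them.

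Genes of antigen presentation by MHC class I were mostly above 0. Of 17 genes 15 were above 0, with a median log2 fold change of 0.30. Of these, 1 was called (Psmb9) and 3 had an unadjusted p under 0.05 in that direction, against 0.0601% and 8.16% of all tested genes. Without CD library 2 or without WD library 2, 12 were above 0 (median 0.21 and 0.23). With the neutrophil or the patrolling monocyte sum in the fit, 12 were also above 0 (median 0.31 and 0.27). The sums were 7732, 6852, 8838 and 8487 cpm in CD and 9162, 10420 and 9590 cpm in WD, without overlap. B2m, the light chain of class I molecules, was at 3600, 3240, 4140 and 4030 cpm in CD and at 4670, 4780 and 4130 cpm in WD (log2 fold change 0.27, edgeR FDR = 0.226). It makes up much of the sum, and without B2m the sums overlapped. Erap1, the trimming peptidase of the same pathway, was named after its values were seen, with 91.1 to 118 cpm in CD and 35.5 to 67.0 cpm in WD (log2 fold change −0.86, edgeR FDR = 0.114). In MHC class II, 9 of 10 genes were below 0, with a median of −0.28. This rests on CD library 4, without which 5 were below 0 and 5 above (median 0.01), and with the neutrophil sum as covariate 8 were above 0 (median 0.17). Cd74, the invariant chain, ranged from 3120 to 6240 cpm in CD and from 2460 to 5200 cpm in WD.

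No gene of the lysosomal and lipid lists was called. Of 27 lysosomal genes 16 were above 0 (median log2 fold change 0.06), and of 16 genes of lipid storage and cholesterol efflux 11 were (median 0.30, or 0.12 without CD library 1 and 0.17 without CD library 2). Ctsd, the aspartyl protease cathepsin D, was at 3230, 2660, 3230 and 3670 cpm in CD and at 4440, 4650 and 4270 cpm in WD (log2 fold change 0.48, SE 0.0993, edgeR FDR = 0.0541), without overlap and just outside the threshold. A list of genes raised in disease-associated microglia had 18 of 19 genes above 0 and a median of 0.35, with none called, 4 with an unadjusted p under 0.05 (8.16% of all tested genes) and 5 with every WD library above every CD library (2.58% of all tested genes). Its median moved with other markers and with 1 library: it was 0.08, with 11 of 19 above 0, when the patrolling monocyte sum was in the fit, 0.57 with the neutrophil sum and 0.23 without WD library 1. Lpl, lipoprotein lipase, which was named after its values were seen, was at 119, 94.1, 80.5 and 163 cpm in CD and at 223, 193 and 194 cpm in WD (log2 fold change 0.83, edgeR FDR = 0.104). Of 14 cathepsins 7 were above 0 and 7 below (median 0.03), so that the list's higher sum in WD (13410 to 14320 cpm against 9612 to 12560 cpm) came from its few abundant members, and by TPM the sums overlapped (8051 to 10230 in CD, 10020 to 10910 in WD). Cholesterol synthesis genes had no common direction, with 6 of 19 above 0 and a median of −0.14. Lss (lanosterol synthase), chosen after its values were seen, was at 2.32 to 13.7 cpm in CD and 29.6 to 32.4 cpm in WD (edgeR FDR = 0.0669), and Sqle (squalene epoxidase), chosen likewise, was at 17.3 to 23.2 cpm in CD and 2.61 to 9.93 cpm in WD (edgeR FDR = 0.182).

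**Figure D4:**
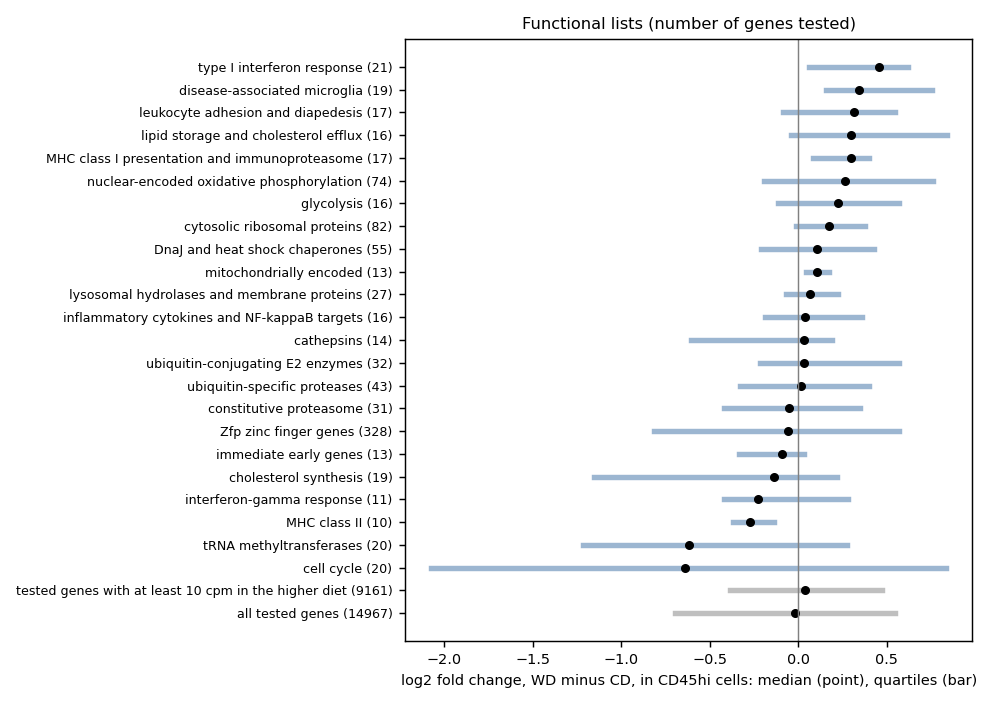
Median (point) and quartiles (bar) of the log2 fold change, WD minus CD, over the tested members of each functional list, with all tested genes in grey at the bottom. Medians run from −0.64 for cell cycle genes to 0.46 for type I interferon response genes, against −0.02 for all tested genes.

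Genes of nuclear-encoded oxidative phosphorylation, to which Sdhd belongs, were above 0 in 50 of 74 cases, with a median of 0.26. Of these 74, 1 was called, 9 had an unadjusted p under 0.05 in that direction and 3 in the other, against 8.16% and 9.39% of all tested genes, so that the former is close to the background. The median was 0.16 without CD library 2, 0.16 with the patrolling monocyte sum in the fit and 0.64 with the neutrophil sum. The sums were 2284, 1987, 2002 and 2369 cpm in CD and 2547, 2552 and 2657 cpm in WD, and they did not overlap. The members did not move as 1 block: Ndufb10 and Ndufa9, both of complex I and chosen after their values were seen, had log2 fold changes of 1.46 and −1.35 (edgeR FDR = 0.128 and 0.131). Of 82 cytosolic ribosomal protein genes 58 were above 0 (median 0.17), with none called, and the median was −0.10 with the patrolling monocyte sum in the fit, 0.11 without CD library 2 and 0.33 without CD library 4. The 20 tRNA methyltransferase genes, which hold Trmt61a, had 13 below 0 and a median of −0.62, with 1 called. Without CD library 3 the median was −0.02 and 10 were below 0, and without WD library 1 it was −0.41. With the patrolling monocyte sum in the fit it was 0.64. Outside it, and chosen after their values were seen, Wdr4, a partner of the guanosine 46 methyltransferase, was at 6.29 to 49.8 cpm in CD and 1.03 to 3.30 cpm in WD (log2 fold change −3.50, edgeR FDR = 0.0543), and Trmt1l was at 46.9 to 89.5 cpm in CD and 18.8 to 31.4 cpm in WD (log2 fold change −1.35, edgeR FDR = 0.0836).

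No gene of the interferon and cytokine lists was called. Type I interferon response genes were above 0 in 16 of 21 cases (median 0.46). Of these, 3 had an unadjusted p under 0.05, where 8.16% of all tested genes were higher at that p. Ifitm3, a membrane restriction factor, was at 248 to 584 cpm in CD and 374 to 587 cpm in WD. Inflammatory cytokine and NF-κB target genes had a median of 0.04, with none called and none with an unadjusted p under 0.05. Il1b, interleukin 1β, was at 839, 541, 526 and 1090 cpm in CD and at 644, 426 and 380 cpm in WD (log2 fold change −0.63, edgeR FDR = 0.373). Without WD library 1 the interferon median was 0.23. With the patrolling monocyte sum in the fit 11 of the 21 interferon genes were above 0 and 10 below (median 0.42). With the border-associated macrophage sum 13 were above 0 (median 0.18), and with the neutrophil sum 19 (median 0.66). Leukocyte adhesion and diapedesis genes had 11 of 17 above 0 with a median of 0.32, which was 0.11 without WD library 1 and −0.08 with the patrolling monocyte sum in the fit. Immediate early genes, which rise when cells are stressed during dissociation, had a median of −0.09.

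The same 38 genes in CD45lo cells had log2 fold changes between 0.01 and 1.57 in size, with a median of 0.20, and none had an unadjusted p under 0.05 there. No gene at all was called between diets in CD45lo cells by edgeR, with 123 genes (0.822%) at an unadjusted p under 0.05 and 4 genes called by DESeq2. All 38 had an unadjusted interaction p under 0.05, against 10.1% of all tested genes. Since the 38 were chosen for their difference in CD45hi cells, that count is a description. The neutrophil sum in CD45lo cells, where it was lower on both diets, averaged 717 ± 143 cpm (SD, n = 4) in CD and 772 ± 94.4 cpm (SD, n = 4) in WD. The median log2 fold change of the 18 neutrophil genes was nevertheless −0.81 there, and that of the granule genes −1.38, against 0.00 for all tested genes, so the neutrophil sum and median differ in sign.

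**Figure D5:**
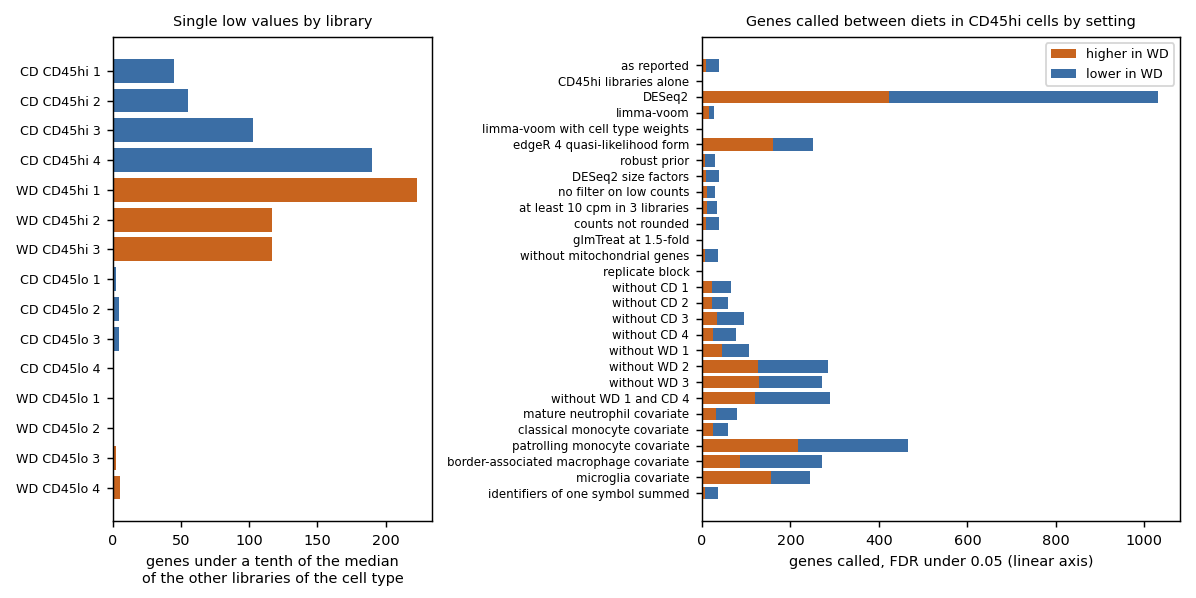
Left, number of genes in each library under 10% of the median of the other libraries of the cell type; right, number of genes called between diets in CD45hi cells under each setting, on linear axes (orange higher, blue lower in WD), where a named library left out is a CD45hi library. CD45hi libraries have 45 to 223 such low values and CD45lo libraries 1 to 5, and the calls run from 0 to 1030.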

How the data were processed

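RNA from sorted brain CD11b+CD45hi and CD11b+CD45lo cells was measured by poly(A) RNA-seq in 15 libraries. The authors aligned reads to mm10 and deposited, per gene, an expected count and a TPM value estimated by RSEM (1.2.12 in the submitters' processing notes, which also name bcl2fastq 2.18.0.12). The strand setting of the counting, and the instrument of each library, are not given in the sources used here. Expected counts were rounded, and a gene was tested where 2 or more libraries reached 1 cpm (14967 of 38924, 38.5%). TMM scaling and the legacy quasi-likelihood test of edgeR 4.0.16 (R 4.3.3) were applied to all 15 libraries with 1 mean per diet and cell type, so that the groups share 1 estimate of spread, and FDR was adjusted over all tested genes. SE was the size of the log2 fold change over the square root of F. A gene is called at an FDR under 0.05. The deposited TPM values were used only to recompute list sums.

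Lists are given by counts and medians. The members, lists and comparisons were chosen with earlier results of these data known. Values are given for called genes of at least 10 cpm in the higher diet (up to 12 each way), for genes the study names for the contrast, for up to 4 genes of highest level in a list, and for Trmt61a and Trmt6; others are said to have been chosen after their values were seen. Some genes, 1 of the called genes among them, are not reported here. Older symbols in the files were matched (Chi3l3, Emr4, 1100001G20Rik), and Lilrb4a had no match. A value near 0 is one of 3 counts or fewer (0.193 to 0.282 cpm in CD45hi libraries), which covers counting error only. Coordinates come from GENCODE M21.

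Alternatives were DESeq2 1.42.0, limma-voom (limma 3.58.1), other filters, scalings and forms of edgeR, a replicate block, cell type covariates, leaving out each library and, chosen after seeing the data, summing identifiers of 1 symbol. Same-numbered WD and CD libraries did not deviate together (r from −0.0173 to −0.00402), so the numbers were not taken as pairs. Animal numbers in the deposited names tie CD45hi to CD45lo libraries of 7 mice, and the interaction was also fitted with the animal as a block. The fit was tested on simulated data.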

Additional observations from a re-analysis of the deposited data

Results flagged for a closer look

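In groups of 4, a value was marked where its gap to the nearest other library was large against the range of the group by Dixon's test, which chance meets in about 1 group in 20. In CD CD45hi cells this held for Sowahc under its called identifier, with 0.0828 cpm in library 2 against 0 in the rest, a value below the floor of 3 counts. CD library 4 was high for Srm (51.2 cpm), Spp1 (187 cpm) and Nr4a1 (302 cpm), and CD library 3 was low for S100a8 (125 cpm). The sum of mast cell and basophil genes was 3.87 cpm in CD library 1 and 0 in the other CD libraries. The diet difference of Trmt61a differed between CD45hi and CD45lo cells by the interaction term of edgeR (FDR = 0.0128), which was lost with the animal as a block (FDR = 0.314).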

How the results depend on the processing

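The 38 calls in CD45hi cells rest on how the spread is estimated. The count was 1030 with DESeq2, 252 with the newer quasi-likelihood form of edgeR and 1 against a 1.5-fold threshold (glmTreat), and 0 both with limma-voom weighted by cell type and with CD45hi libraries alone. With a cell type sum as covariate it was 79 (mature neutrophil), 60 (classical monocyte), 466 (patrolling monocyte), 272 (border-associated macrophage) and 244 (microglia). Leaving out 1 library gave 1 to 286 calls: 65, 59, 96 and 77 without CD CD45hi libraries 1 to 4, 106, 286 and 271 without WD CD45hi libraries 1 to 3, 12, 9, 10 and 10 without CD CD45lo libraries 1 to 4 and 10, 1, 10 and 15 without WD CD45lo libraries 1 to 4. Without WD CD45hi library 1 and CD CD45hi library 4 together it was 290. The cause was not tested. The replicate block by library number left 2 calls in CD45hi cells and 0 for the interaction, and since the numbers do not pair the libraries this says nothing of the size of the effects; the block by animal number in the deposited names also gave 0 for the interaction. DESeq2 called 4 genes in CD45lo cells and 188 for the interaction, where both forms of limma-voom, the newer form of edgeR and the neutrophil covariate gave 0, and the classical, patrolling and macrophage covariates gave 2, 19 and 9. The interaction count was 0 to 6 with 1 library left out: 2 without CD CD45hi library 2, 4, 6 and 3 without WD CD45hi libraries 1 to 3, 0 without CD CD45lo library 1 or 2, and 3 without the pair named above.

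No called gene changed sign under any setting, except Sowahc once its 2 identifiers were summed (−0.18). Some of the other named genes, none of them called, did. With the neutrophil covariate the values became 0.17 for S100a9, 0.01 for S100a8, 0.12 for Csf3r, 2.3 for Ngp, 0.09 for Lcn2, 1.55 for Ltf, 0.10 for Ccr2, 0.38 for Fn1, 0.16 for Cd163, 0.18 for Cd74, −0.01 for Tap1 and −0.89 for Trmt6. With the patrolling covariate they became −0.15 for Itgam, 0.02 for Ngp, −0.53 for Nr4a1, −0.32 for Ace, 0.28 for Cd163, 0.07 for P2ry12 and −0.15 for Tap1, and with the macrophage covariate 0.04 for Mrc1 and 0.33 for Cd163. The block gave −0.04 for both Trmt6 and F13a1, and leaving out mitochondrial genes −0.00 for Itgam. Without WD CD45hi library 1 and CD CD45hi library 4, Mrc1 was at 0.20, Stab1 at 0.01, Cd163 at 0.56, Nr4a1 at 0.57 and Cd74 at 0.17 (−0.69 to −0.02 with 1 library left out). With 1 library left out, the log2 fold change ran from −0.52 to 0.62 for Trmt6, from −0.13 to 0.11 for Itgam, from −0.28 to 0.34 for F13a1, from −0.01 to 0.52 for Nr4a1, from −0.74 to 0.46 for Cd163, from −0.76 to 0.17 for Mrc1 and from −0.50 to 0.00 for Stab1. Depth limits values below 0.193 to 0.282 cpm.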

Other observations

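Of the 5 astrocyte genes, which are outside the myeloid lists, 3 were above 0 and 2 below, and none passed the test. All 3 above 0 had an unadjusted p under 0.05 (8.16% of all tested genes were higher at that p), and neither of the 2 below did. For 1 of the 5 every WD library was above every CD library, against 2.58% of all tested genes. Slc1a2, the astrocytic glutamate transporter, was at 36.3 to 83.7 cpm in CD and at 55.4, 175 and 134 cpm in WD (edgeR FDR = 0.164). Aqp4, the water channel of astrocyte endfeet, was at 0.088 to 4.72 cpm in CD and at 1.98, 64.9 and 21.5 cpm in WD (edgeR FDR = 0.121). In cpm, WD library 1 was within the CD range for both genes, and WD libraries 2 and 3 were above it. By TPM, WD library 1 had the highest sum of the astrocyte list (110.5). Aldoc, an aldolase of astrocytes, was at 7.13 to 22.0 cpm in CD and 12.6 to 14.5 cpm in WD (log2 fold change −0.27), and Gfap, the intermediate filament of astrocytes, named after its values were seen, was near 0 at a mean of 0.553 cpm (log2 fold change −3.15).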
